A study of Mus musculus with 36 samples.

Results

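RfxCas13d was compared under 2 crRNAs that target the same transcript: the 2 RfxCas13d+Sik3-S crRNA 8 libraries were set against the 2 RfxCas13d+Sik3-S crRNA 1 libraries, 4 of the 36 libraries of the series. The members were taken from the sample labels, by nuclease and crRNA. The comparison and its lead genes, Ubp1 and Psmd11, were set with earlier results of these data known. The cells were N2a, a mouse neuroblastoma line, and every culture was transfected with plasmids. In the first group they encoded RfxCas13d and Sik3-S crRNA 8, and in the second RfxCas13d and Sik3-S crRNA 1. The 2 groups with dRfxCas13d, the catalytically dead form, and the same crRNAs (2 libraries each) give the same change of crRNA without nuclease activity. The 10 RfxCas13d libraries with Map2 crRNA 1, Map2 crRNA 3, Mapt crRNA 4, Mapt crRNA 6 or Rbfox3 crRNA 5 give the range under an active nuclease aimed elsewhere. For Rbfox3 the labels give the crRNA as 5 in some fields and as 6 in others, and 5 is used here. The remaining libraries hold either nuclease alone or with a non-targeting (NT) crRNA, and dRfxCas13d with those 5 crRNAs. In all groups the GFP-positive fraction was collected by sorting at 48 h, and the RNA therefore comes from a sorted pool of transiently transfected cells of 1 line. The sources do not state whether a group's 2 libraries are independent transfections, and the p-values therefore reflect only the scatter between libraries, which may be technical.

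Cas13d enzymes are RNA-guided RNases. The spacer of the crRNA pairs with a complementary stretch of RNA, and the paired enzyme then cuts the bound RNA and can also cut other RNAs near it, which is called collateral activity. The dead form still binds the crRNA and the target but does not cut. Sik3 encodes salt-inducible kinase 3, a serine/threonine kinase related to AMPK that phosphorylates class IIa histone deacetylases and CRTC coactivators, and it has a short form, Sik3-S, made by alternative splicing. Ubp1 encodes a DNA-binding transcription factor of the CP2 family. Psmd11 encodes Rpn6, a subunit of the lid of the 19S particle. This particle caps the 20S core of the proteasome, recognises ubiquitylated proteins, removes their ubiquitin and unfolds them, and the 20S core degrades them.

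The 2 spacers are shown because the comparison turns on them. Each is 22 bases long, written 5′ to 3′ as DNA.
Sik3-S crRNA 8 spacer: gtcgctctgtgaatcaggcatc
Sik3-S crRNA 1 spacer: caagcactgccaggtgccacat
The RNA strand each of them pairs with was found in GENCODE vM21 transcripts (mm10) and is given on the plus strand of chromosome 9, with every paired base in capitals.
Sik3-S crRNA 8 target: GATGCCTGATTCACAGAGCGAC
Sik3-S crRNA 1 target: ATGTGGCACCTGGCAGTGCTTG
The crRNA 8 target lies at chr9:46202652-46202673 and the crRNA 1 target at chr9:46202074-46202095, with 578 bases between their starts. Both are in the 3′ UTR, in exon 13 of 13 of the protein-coding transcript Sik3-203. Of the 141767 transcripts searched, and of the 7 annotated for Sik3, that was the only one with a full match to either spacer.

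The files hold FPKM, fragments scaled to gene length and library size, for 25239 genes. The smallest FPKM steps of single-exon genes put the depth at 12920000 and 16350000 fragments in the crRNA 8 libraries and at 10890000 and 14010000 in the crRNA 1 libraries, within 8620000 to 16350000 over all 36. Over the 13293 genes tested, the SD of the log2 difference was 0.254 between the 2 crRNA 8 libraries and 0.268 between the 2 crRNA 1 libraries, and it was 0.265 to 0.280 for the 4 pairings of a crRNA 8 with a crRNA 1 library. For most genes the 2 groups were therefore about as far apart as replicates. Sympathetic neuroblast markers, the lineage of neuroblastoma, summed to 1647 and 1625 FPKM with crRNA 8 and to 1739 and 1716 FPKM with crRNA 1. Of the 15 markers in that list, 1 or 2 were at 0 in these libraries. Markers of macrophages, glia, hepatocytes and erythroid cells summed to at most 4.80 FPKM per list in each of the 4 libraries, and fibroblast markers to 133 and 125 FPKM with crRNA 8 and 138 and 136 FPKM with crRNA 1. Neuroblast and fibroblast sums did not overlap between the groups, and their part in the results was not tested.

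Sik3 itself was low with both crRNAs. Its FPKM, counted over all of its transcripts, was 2.00 and 1.63 with RfxCas13d and crRNA 8, and 1.72 and 1.46 with RfxCas13d and crRNA 1. The 2 groups overlapped. In dRfxCas13d, Sik3 had 16.6 and 17.1 FPKM with crRNA 8 and 16.1 and 15.9 FPKM with crRNA 1. The log2 fold change of crRNA 8 over crRNA 1 in RfxCas13d was 0.12 (95% interval -0.04 to 0.28, adjusted p = 0.546). Folds here are differences of log2(FPKM + 1), and adjusted p-values come from limma with Benjamini-Hochberg adjustment over the 13293 genes. The 10 RfxCas13d libraries with crRNAs against other genes held 10.4 to 13.3 FPKM of Sik3, below the 14.1 to 16.2 FPKM of the 4 RfxCas13d libraries with no crRNA or NT crRNA. The lowest of these 4, NT crRNA replicate 1, had 460 FPKM of hepatocyte markers, against 0.916 FPKM in NT crRNA replicate 2. Where that RNA came from was not tested, and the library was part of the fit. In sorted bulk RNA, fewer cells that express a gene and less of its RNA per cell cannot be told apart.

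Ubp1 and Psmd11 separated the crRNAs, in opposite directions. Ubp1 (chr9:113930934-113977202, plus strand) had 22.9 and 22.7 FPKM with crRNA 8 and 8.53 and 8.35 FPKM with crRNA 1. The groups were far apart, and the level with crRNA 1 was 37.0% of that with crRNA 8. The log2 fold change was 1.34 (SE 0.0637, adjusted p = 5.82e-12). In dRfxCas13d the same crRNAs gave 31.1 and 30.7 FPKM with crRNA 8 and 29.5 and 30.5 FPKM with crRNA 1, a log2 fold change of 0.04 (adjusted p = 0.829). The difference between the 2 nucleases, tested as an interaction, was 1.30 (adjusted p = 1.45e-08). The crRNA 1 libraries were the lowest of all 36 for Ubp1. The other 34 ranged from 21.5 to 35.8 FPKM, and the 10 RfxCas13d libraries with crRNAs against other genes, from 21.5 to 26.3 FPKM, held the crRNA 8 values within their range. The 18 dRfxCas13d libraries had 28.3 to 35.8 FPKM of Ubp1, above all of those RfxCas13d values. The 4 RfxCas13d libraries with no crRNA or NT crRNA had 27.2 to 30.1 FPKM of Ubp1, which overlaps the dRfxCas13d range.

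Psmd11 (chr11:80428615-80473248, plus strand) was the counterpart. It had 22.5 and 19.7 FPKM with crRNA 8 and 47.7 and 46.3 FPKM with crRNA 1. Here crRNA 8 was the low group, at 44.9% of the level with crRNA 1. The log2 fold change was -1.11 (SE 0.0684, adjusted p = 5.85e-10). In dRfxCas13d, Psmd11 had 43.9 and 45.3 FPKM with crRNA 8 and 47.7 and 48.5 FPKM with crRNA 1, a log2 fold change of -0.10 (adjusted p = 0.564). The interaction was -1.01 (adjusted p = 3.56e-06). Relative to dRfxCas13d with the same crRNA, RfxCas13d held 47.4% of Psmd11 with crRNA 8 and 97.6% with crRNA 1, and 73.8% of Ubp1 with crRNA 8 and 28.1% with crRNA 1. Over the other 34 libraries the FPKM of Psmd11 lay between 42.7 and 53.5, so that the 2 crRNA 8 libraries stood alone and the crRNA 1 libraries sat among the rest. Both genes kept their calls without any 1 of the 4 libraries, with log2 fold changes of 1.33 to 1.35 for Ubp1 and -1.20 to -1.03 for Psmd11.

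**Figure D1:**
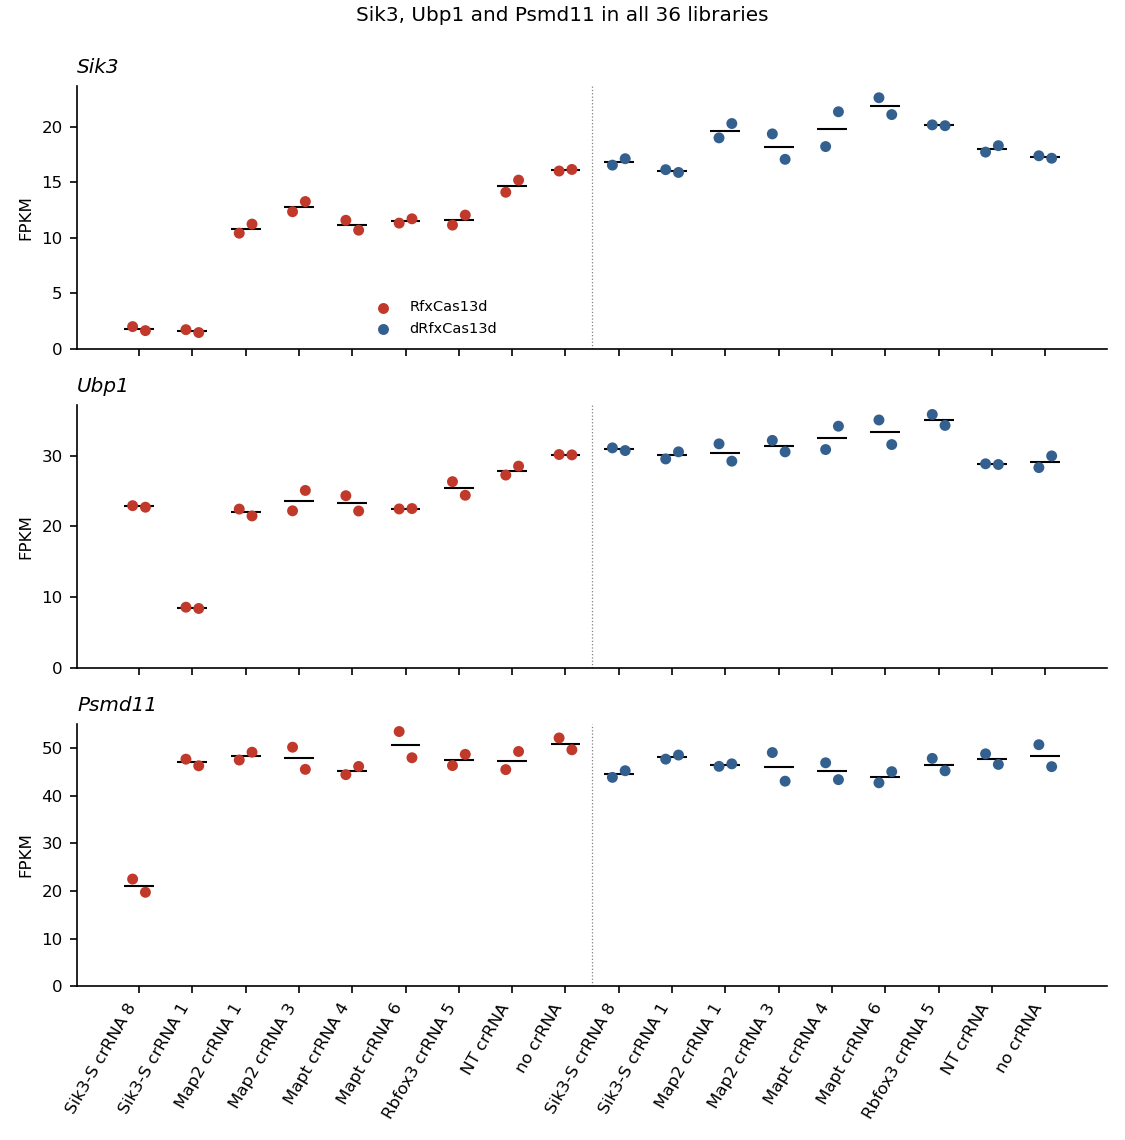
FPKM (y axis) of Sik3, Ubp1 and Psmd11 in the 36 libraries, grouped along the x axis by crRNA, with RfxCas13d (red) left of the dotted line and dRfxCas13d (blue) right of it; points are libraries and bars are group means. Sik3 is low in both Sik3-S groups of RfxCas13d, Ubp1 is low with crRNA 1 alone (8.53 and 8.35) and Psmd11 with crRNA 8 alone (22.5 and 19.7).

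Across all genes, 7 differed between crRNA 8 and crRNA 1 in RfxCas13d with a fold of at least 2 and an adjusted p under 0.05 (differentially expressed genes, DEGs), 4 of them higher and 3 lower with crRNA 8. That is 0.0527% of the genes tested, and under quantile normalization 2 were higher and 3 lower. At an adjusted p under 0.05 and any fold, 222 genes were called (1.67%), 80 higher (0.602%) and 142 lower (1.07%), and 1722 had an unadjusted p under 0.05 (13%). Most of the 222 changes were small, with a median size of 0.28 and a range of 0.11 to 2.08 on the log2 scale. The spread behind these calls was estimated over all 18 groups. When these 4 libraries were fitted on their own, limma called 0 genes, with 1758 at an unadjusted p under 0.05, and the adjusted p was 0.205 for Ubp1 and 0.292 for Psmd11. The number of genes called at any fold was 71 without crRNA 8 replicate 1, 106 without crRNA 8 replicate 2, 80 without crRNA 1 replicate 1 and 92 without crRNA 1 replicate 2. Of these, 60, 93, 72 and 77 were among the 222. An exact permutation test of 2 libraries against 2 cannot give a two-sided p below 0.333.

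**Figure D2:**
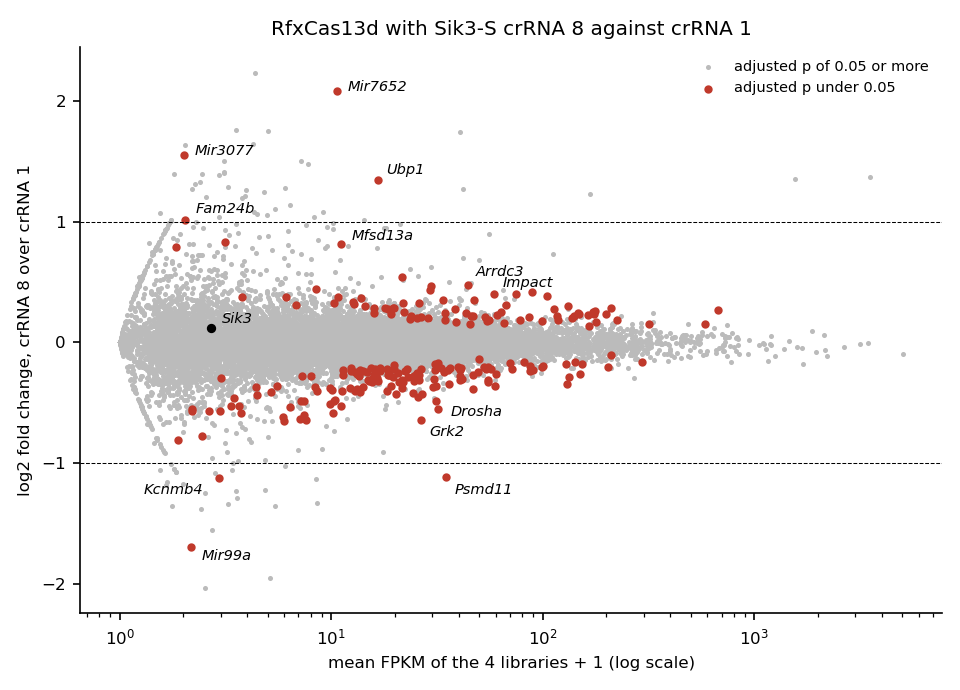
Log2 fold change of crRNA 8 over crRNA 1 in RfxCas13d (y axis) against the mean FPKM of the 4 libraries plus 1 (x axis, log scale) for 13293 genes; red points have an adjusted p under 0.05, the black point is Sik3 and dashed lines mark a fold of 2. Ubp1 lies at 1.34 and Psmd11 at -1.11, and most of the 222 red points lie close to 0.

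The other 5 DEGs were low in FPKM or short, and 4 of them rest on few fragments. Mir3077, a microRNA hairpin entry of 64 bases, had 1.20 and 2.83 FPKM with crRNA 8, which is worth an estimated 1 and 3 fragments. It was listed at 0 in both crRNA 1 libraries and above 0 in no other of the 36. Mir99a, a hairpin of 65 bases, was listed at 0 in both crRNA 8 libraries and had 1.40 and 3.28 FPKM with crRNA 1, an estimated 1 and 3 fragments. It was above 0 in 4 of the 36 libraries. Mir7652, of 56 bases, had 19.2 and 12.95 FPKM with crRNA 8 and 1.62 and 5.08 FPKM with crRNA 1 (log2 fold change 2.08, adjusted p = 0.048). In dRfxCas13d it had 12.5 and 7.34 FPKM with crRNA 8 and 32.7 and 26.7 FPKM with crRNA 1, the other way round. Fam24b had 1.59 and 1.88 FPKM with crRNA 8 and 0.404 and 0.316 FPKM with crRNA 1 (log2 fold change 1.02, adjusted p = 0.0106), an estimated 13.9 and 20.9 fragments with crRNA 8 against 3 and 3 with crRNA 1. Kcnmb4, the beta 4 subunit of the calcium-activated BK potassium channel, had 0.457 and 1.32 FPKM with crRNA 8 and 3.08 and 2.90 FPKM with crRNA 1 (log2 fold change -1.12, adjusted p = 0.0237). Fam24b, Kcnmb4, Mir7652 and Mir99a each lost their call without at least 1 of the 4 libraries. A library made with an mRNA kit does not measure mature microRNAs, and the hairpin entries count fragments that overlap the hairpin.

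Among the genes of smallest p that were higher with crRNA 8, 2 encode proteasome subunits and the others have varied roles. Arrdc3, an alpha-arrestin that takes part in receptor trafficking, had 50.7 and 49.8 FPKM with crRNA 8 and 36.2 and 35.7 FPKM with crRNA 1 (log2 fold change 0.48, adjusted p = 3.52e-07). Impact, which restrains the activation of the kinase GCN2, had 68.4 and 63.6 FPKM with crRNA 8 and 49.3 and 50.3 FPKM with crRNA 1 (log2 fold change 0.40, adjusted p = 5.74e-07). Genes of smallest p were named only where the groups did not overlap, which held for 44.5% of all genes tested. Arrdc3 and Impact differed in where the other libraries lay. The 10 RfxCas13d libraries with crRNAs against other genes had 35.5 to 55.5 FPKM of Arrdc3, which covers both groups, and 50.2 to 56.2 FPKM of Impact, below both crRNA 8 libraries. Odr4, whose counterpart in Caenorhabditis elegans is needed to bring odorant receptors to cilia, had 33.1 and 33.6 FPKM with crRNA 8 and 24.4 and 23.6 FPKM with crRNA 1 (log2 fold change 0.47). Its range in the same 10 libraries, 26.8 to 31.3 FPKM, lay between the groups. Mfsd13a, of the major facilitator family of transporters, had 12.9 and 13.3 FPKM with crRNA 8 and 6.38 and 7.80 FPKM with crRNA 1 (log2 fold change 0.82, adjusted p = 0.000495). Here crRNA 1 was the group apart, since the 10 libraries had 11.8 to 15.2 FPKM. Zc3h8, a zinc finger protein, rose by 0.54, and Hspb8, a small heat shock protein that works with the co-chaperone BAG3, rose by 0.39 to 122 and 113 FPKM with crRNA 8, against 92.0 and 88.2 FPKM with crRNA 1. Pfn2, an actin monomer-binding profilin, and Zwint, a kinetochore protein, rose by 0.31 and 0.26.

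The genes of smallest p that were lower with crRNA 8 included regulators of signalling, RNA processing and the extracellular matrix. Grk2, a kinase that desensitises G protein-coupled receptors, had 19.5 and 19.7 FPKM with crRNA 8 and 31.8 and 30.7 FPKM with crRNA 1 (log2 fold change -0.64, adjusted p = 1.75e-06). Drosha, the nuclear RNase that cuts primary microRNAs, had 25.4 and 24.5 FPKM with crRNA 8 and 37.0 and 37.5 FPKM with crRNA 1 (log2 fold change -0.55, adjusted p = 1.07e-05). Ate1, an arginyltransferase that marks proteins for degradation, had 4.73 and 5.19 FPKM with crRNA 8 and 8.20 and 8.42 FPKM with crRNA 1 (log2 fold change -0.64, adjusted p = 4.92e-05). For these genes both crRNA 8 libraries lay under the 10 RfxCas13d libraries with crRNAs against other genes, whose lowest values were 28.3 FPKM for Grk2, 38.0 FPKM for Drosha and 7.11 FPKM for Ate1. For Drosha the crRNA 1 libraries also lay just under that lowest value. Rsrc1, a serine- and arginine-rich protein linked to splicing, had 5.24 and 4.49 FPKM with crRNA 8 and 7.49 and 8.37 FPKM with crRNA 1 (log2 fold change -0.60, adjusted p = 0.0002). Sparc, a secreted matrix protein, fell by 0.43, Podxl, a sialomucin of the cell surface, by 0.42, and Iqgap2, a cytoskeletal scaffold, by 0.40. Capn5, a calpain protease, fell by 0.36, Vat1l by 0.33, Acat1, a mitochondrial thiolase of ketone body and isoleucine metabolism, by 0.31, and Slc7a14, a member of the cationic amino acid transporter family, by 0.28. Of the 28 named genes called in this comparison, 24 kept their call without each of the 4 libraries in turn.

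**Figure D3:**
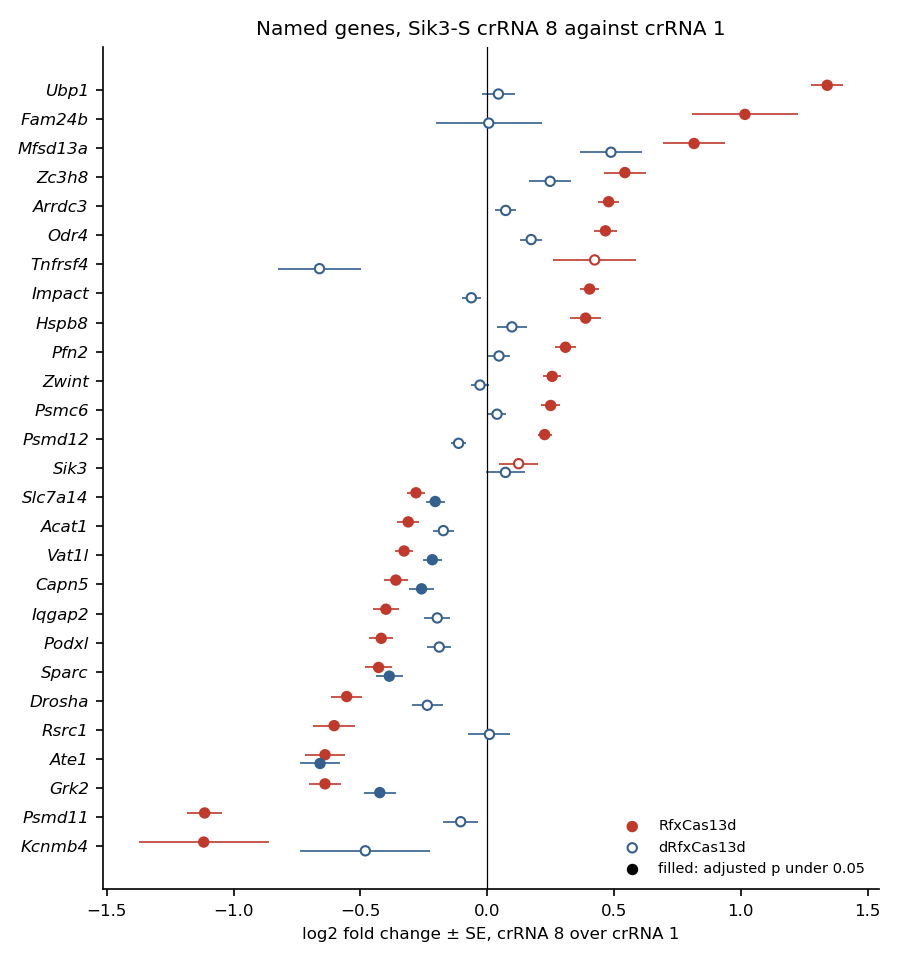
Log2 fold change of crRNA 8 over crRNA 1 (x axis, with SE) for the named genes other than the microRNA hairpins (y axis), in RfxCas13d (red) and dRfxCas13d (blue); filled points have an adjusted p under 0.05. Ubp1 and Psmd11 lie far from 0 in RfxCas13d and near 0 in dRfxCas13d, whereas Ate1 (-0.64 and -0.66) and Sparc (-0.43 and -0.39) have like values in both.

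While Psmd11 fell with crRNA 8, many of the genes for its partners in the 19S particle rose. Of the 18 other 19S genes tested, 12 rose (66.7%), against 0.602% of all genes tested, and 0 fell, with 15 higher and 0 lower at an unadjusted p under 0.05, against 5.69% and 7.27% of all genes. In 16 of the 18, both crRNA 8 libraries were above both crRNA 1 libraries, where 44.5% of all genes had groups that did not overlap in either direction. Their median log2 fold change was 0.23, with a range of -0.07 for Sem1 to 0.44 for Adrm1, and the median of all genes was -0.00087. Summed, the 18 genes had 2933 and 2833 FPKM with crRNA 8 and 2562 and 2533 FPKM with crRNA 1. The crRNA 8 sums were above, and the crRNA 1 sums within, the 2342 to 2642 FPKM of the 10 RfxCas13d libraries with crRNAs against other genes. In dRfxCas13d the sums were 2194 and 2197 FPKM with crRNA 8 and 2243 and 2260 FPKM with crRNA 1, and limma called 0 of the 18 genes, with 2 lower at an unadjusted p under 0.05, Psmc1 and Psmd12, against 6.48% of all genes. The list was written with earlier results of these data known, so its count describes these libraries.

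Within the 19S particle the rise took in ATPases of the base and subunits of the lid. Psmd12, the lid subunit Rpn5, had 177 and 173 FPKM with crRNA 8 and 149 and 152 FPKM with crRNA 1 (log2 fold change 0.23, SE 0.0280, adjusted p = 4.92e-05). In dRfxCas13d it had 127 and 127 FPKM with crRNA 8 and 136 and 139 FPKM with crRNA 1, and the interaction was 0.34 (adjusted p = 5.91e-05). Psmd4, the ubiquitin receptor Rpn10, had 231 and 230 FPKM with crRNA 8 and 188 and 191 FPKM with crRNA 1 (log2 fold change 0.29, interaction 0.36, adjusted p of the interaction 0.0256). The ATPases Psmc2, Psmc3, Psmc4, Psmc5 and Psmc6 rose by 0.25, 0.30, 0.23, 0.23 and 0.25. Psmd14, the deubiquitylase Rpn11, rose by 0.22 and Adrm1, the ubiquitin receptor Rpn13, by 0.44. Psmc5, Psmd4 and Psmd12 were the 3 of the 18 with an interaction at an adjusted p under 0.05, against 0.263% of all genes tested. Psmc1, Psmd2, Psmd6, Psmd8, Psmd13 and Sem1 did not pass the test, with adjusted p-values of 0.0616 to 0.936. The count of 12 was 5 without crRNA 8 replicate 1 or without crRNA 1 replicate 2, 6 without crRNA 1 replicate 1 and 7 without crRNA 8 replicate 2, while 0.188% to 0.301% of all genes were called higher in these 4 fits. When only the 4 libraries were fitted it was 0, with 16 of the 18 higher at an unadjusted p under 0.05, against 6.31% of all genes.

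Of the 14 genes of the 20S core, 1 rose, the alpha ring subunit Psma2, with 150 and 141 FPKM with crRNA 8 and 130 and 124 FPKM with crRNA 1 (log2 fold change 0.20, adjusted p = 0.0412). It lost its call without any 1 of the 4 libraries. All 14 had a log2 fold change above 0, with a median of 0.12, where 48.8% of all genes were above 0. At an unadjusted p under 0.05, 5 of the 14 were higher, against 5.69% of all genes. In 11 of the 14, both crRNA 8 libraries were above both crRNA 1 libraries, where 44.5% of all genes did not overlap in either direction. Summed, the 14 genes had 2831 and 2791 FPKM with crRNA 8 and 2600 and 2564 FPKM with crRNA 1. The 10 RfxCas13d libraries with crRNAs against other genes had 2224 to 2568 FPKM, below both crRNA 8 sums and the higher crRNA 1 sum. In dRfxCas13d the median was -0.04 and limma called 0, with 2 lower at an unadjusted p under 0.05. The 18 genes for proteasome assembly and regulation, among them Nfe2l1, a transcription factor of proteasome subunit genes in mammals, and Ddi2, the protease that activates its product, had a median of -0.0027, with 0 called and 3 higher at an unadjusted p under 0.05. Nfe2l1 had 57.9 and 56.0 FPKM with crRNA 8 and 54.9 and 59.1 FPKM with crRNA 1.

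**Figure D4:**
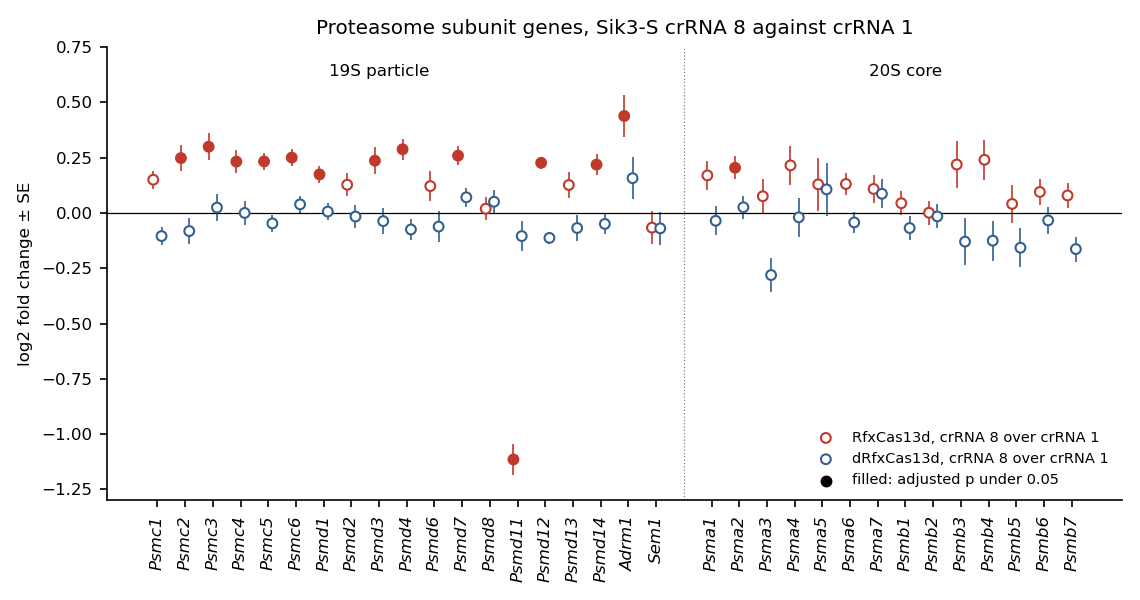
Log2 fold change of crRNA 8 over crRNA 1 (y axis, with SE) for the 19 genes of the 19S particle and the 14 genes of the 20S core (x axis), in RfxCas13d (red) and dRfxCas13d (blue); filled points have an adjusted p under 0.05. In RfxCas13d, Psmd11 is at -1.11 and 12 other 19S genes are filled above 0, and in dRfxCas13d no point is filled.

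The remaining lists held few calls. Over all genes tested, 5.69% were higher and 7.27% lower at an unadjusted p under 0.05. The 13 kinases and regulators of the SIK pathway had 0 called in RfxCas13d, with 3 lower at an unadjusted p under 0.05 and a median log2 fold change of -0.09. The 16 tested SIK substrates and partners had 0 called (0 at an unadjusted p under 0.05, median -0.02), and the 13 tested CREB target genes had 0 called (2 higher at an unadjusted p under 0.05, median 0.09). Of the 4 CP2 and grainyhead factors tested, Ubp1 alone was called, and its relative Tfcp2 had 8.68 and 8.47 FPKM with crRNA 8 and 9.68 and 8.73 FPKM with crRNA 1 (log2 fold change -0.08, adjusted p = 0.668). Immediate early genes, 28 tested, had 0 called, 4 higher and 2 lower at an unadjusted p under 0.05 and a median of 0.05. Of 25 targets of the integrated stress response, 1 fell, the amino acid transporter Slc7a5, with 275 and 279 FPKM with crRNA 8 and 315 and 309 FPKM with crRNA 1 (log2 fold change -0.16). Of 33 interferon-stimulated genes, the chemokine Cxcl10 rose by 0.41 and the ubiquitin ligase Trim25 fell by 0.23. Among 30 G1/S and replication genes, the primase subunit Prim1 rose by 0.19 and the transcription factor E2f1 fell by 0.22, and among 28 G2/M genes the mitotic kinase Plk1 fell by 0.22. Of these 28, 0 were higher and 7 lower at an unadjusted p under 0.05, 24 had a log2 fold change below 0, against 50.2% of all genes, and the median was -0.08.

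Of 23 sterol synthesis genes, Srebf2, the transcription factor that drives them, fell by 0.17. At an unadjusted p under 0.05, 7 of the 23 were lower, against 7.27% of all genes, and 1 was higher, and the median was -0.10. Of 41 genes of the RNA decay machinery, Smg6, the endonuclease of nonsense-mediated decay, fell by 0.21, and of 27 genes of the neuronal cytoskeleton and synapse, Mapt, which encodes tau, fell by 0.31. Of the 9 genes called in these lists other than Ubp1 and the proteasome genes, each lost its call without at least 1 of the 4 libraries. The 4 tested Gadd45 genes, 15 p53 targets, 23 chaperones, 24 genes of glycolysis and hypoxia, 13 kinases of the ribotoxic stress response and 13 AMPK-related kinases had 0 called each, with 2, 3, 6, 3, 3 and 3 at an unadjusted p under 0.05. The 6 chaperones were all higher, against 5.69% of all genes, and the other lists had genes in both directions. Of the 23 chaperones, 17 had a log2 fold change above 0, against 48.8% of all genes, with a median of 0.02. The 76 cytosolic and 78 mitochondrial ribosomal protein genes and 83 respiratory chain genes had 0 called, 5, 4 and 4 at an unadjusted p under 0.05, and medians of -0.02, -0.0059 and -0.0061. Replication-dependent histone genes, 55 tested, had a median of 0.23 and 41 values above 0, against 48.8% of all genes. Of these 55, 0 were called, and 4 were higher and 1 lower at an unadjusted p under 0.05. The 104 snoRNA entries had a median of 0.14, with 0 called and with 7 higher and 0 lower at an unadjusted p under 0.05, against 5.69% and 7.27% of all genes. Without crRNA 8 replicate 2 these medians were 0.13 and 0.02. RNAs of both lists mostly lack a poly(A) tail. Of the 13 neuroblast markers tested, 0 were called, 1 was lower at an unadjusted p under 0.05 and the median was -0.03.

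In dRfxCas13d, crRNA 8 against crRNA 1 gave 0 DEGs, with 83 genes at an adjusted p under 0.05 of any fold (0.624%), 25 higher (0.188%) and 58 lower (0.436%), and 1679 at an unadjusted p under 0.05 (12.6%). The 83 became 17 without crRNA 8 replicate 1, 8 without crRNA 8 replicate 2, 18 without crRNA 1 replicate 1 and 22 without crRNA 1 replicate 2, with 6, 1, 5 and 5 DEGs. These libraries are not shared with the RfxCas13d comparison. Of the 222 genes called in RfxCas13d, 166 (74.8%) had the same sign in dRfxCas13d, against 54.2% of all genes tested. 20 of the 222 (9.01%) were called in dRfxCas13d in the same direction, which is 20 of the 83 called there, and 0 in the opposite one. The Spearman correlation of the 2 log2 fold changes was 0.12 over all genes and 0.56 over the 222, across genes that are not independent. A sign common to both nucleases was thus frequent among the called genes.

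Of the 20 genes called in both, 18 were lower with crRNA 8. Ate1, with the values above in RfxCas13d, had 6.63 and 7.44 FPKM with crRNA 8 and 12.2 and 11.3 FPKM with crRNA 1 in dRfxCas13d (log2 fold change -0.66, adjusted p = 0.000329), and its interaction was 0.02 (adjusted p = 0.978). Sparc in dRfxCas13d had 24.7 and 23.6 FPKM with crRNA 8 and 32.2 and 31.6 FPKM with crRNA 1 (log2 fold change -0.39, adjusted p = 0.00116). Grk2 in dRfxCas13d had 20.2 and 18.5 FPKM with crRNA 8 and 26.9 and 25.8 FPKM with crRNA 1 (log2 fold change -0.42, adjusted p = 0.00236). In all of these the dRfxCas13d groups did not overlap. Vat1l, Slc7a14, Capn5, Stra6, a receptor for retinol-binding protein, Alk, a receptor tyrosine kinase mutated in some neuroblastomas, and the transcription factor Stat3 were also lower in both. Cxcl10 and Hdgf, a growth factor, were the 2 that were higher in both. Cxcl10 had 108 and 92.5 FPKM with crRNA 8 and 75.5 and 74.6 FPKM with crRNA 1 in RfxCas13d, and 76.1 and 78.4 FPKM with crRNA 8 and 61.5 and 58.1 FPKM with crRNA 1 in dRfxCas13d.

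**Figure D5:**
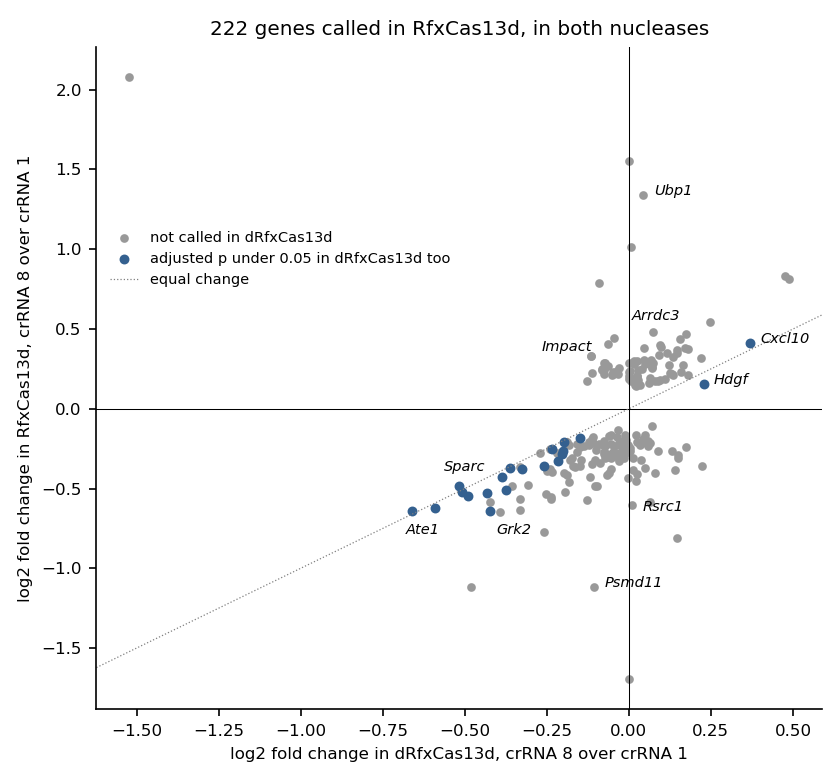
Log2 fold change of crRNA 8 over crRNA 1 for the 222 genes called in RfxCas13d, in RfxCas13d (y axis) and in dRfxCas13d (x axis); blue points, 20 genes, have an adjusted p under 0.05 in dRfxCas13d too, and the dotted line marks equal change. Ubp1 and Psmd11 lie near 0 on the x axis. The blue points lie close to the dotted line, in part because they were chosen by a call in both nucleases.

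The test of the difference between the nucleases passed for 35 genes (0.263%), 20 higher and 15 lower, of which 5 had a difference of at least 1 on the log2 scale (0.0376%): Ubp1, Psmd11, Mir3077, Mir7652 and Tnfrsf4. Psmd11 was the 1 of the 5 with a negative difference, and under quantile normalization there were 3, all positive. Of the 222 genes called in RfxCas13d, 23 were among the 35. Both calls use the same RfxCas13d libraries, so this overlap is not independent of the first call. Tnfrsf4, the receptor OX40, had 2.12 and 2.15 FPKM with crRNA 8 and 1.34 and 1.36 FPKM with crRNA 1 in RfxCas13d, and 0.909 and 0.925 FPKM with crRNA 8 and 1.51 and 2.69 FPKM with crRNA 1 in dRfxCas13d. Its interaction was 1.09 (adjusted p = 0.0441), and neither comparison passed on its own. Of the 24 glycolysis and hypoxia genes, 0 were called in RfxCas13d and 3 in dRfxCas13d, all lower (0.436% of all genes). At an unadjusted p under 0.05, 11 were lower in dRfxCas13d (6.48% of all genes). In dRfxCas13d 23 were below 0 (49.9% of all genes), with a median of -0.10. For the interaction, 2 of the 24 were called, both higher. At an unadjusted p under 0.05, 11 were higher, against 648 of 13293 genes. When only the 8 libraries concerned were fitted, 3 genes had an interaction at an adjusted p under 0.05. Without each of the 8 libraries in turn the number was 8 to 16, and it was lowest without dRfxCas13d crRNA 8 replicate 2.

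Set beside the 10 RfxCas13d libraries with crRNAs against other genes, more genes were called for the crRNA 8 than for the crRNA 1 libraries. Both comparisons share these 10 libraries and each shares 2 with the comparison above, so the values are given side by side. Against the mean of the 5 other crRNAs, crRNA 8 had 11 DEGs (0.0828%) and 1080 genes of any fold (8.12%), 458 higher and 622 lower. For crRNA 1 there were 3 DEGs (0.0226%) and 54 genes of any fold (0.406%), 30 higher and 24 lower. Of the 80 genes higher with crRNA 8 than with crRNA 1, 50 had both crRNA 8 libraries above the range of the 10, and 14 had both crRNA 1 libraries below it. Of the 142 that were lower, 107 had both crRNA 8 libraries below that range and 8 had both crRNA 1 libraries above it. Over all genes tested, both crRNA 8 libraries were above the range in 3.57% and below it in 6.5%, and both crRNA 1 libraries were above it in 1.8% and below it in 2.57%. The 10 libraries entered the estimate of the spread. For the 18 19S genes other than Psmd11, the median log2 difference from the 5 other crRNAs was 0.23 with crRNA 8, with 16 called higher (3.45% of all genes), and 0.01 with crRNA 1, with 0 called by limma (0.226% of all genes were higher) and 3 higher at an unadjusted p under 0.05 (7.13% of all genes). The 14 genes of the 20S core had a like median with crRNA 8, 0.21, with 9 called higher. With crRNA 1 their median was 0.10, with 1 called (0.406% of all genes).

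Annotated transcripts were searched for other sites of either spacer. A gene counted as matched at no more than 4 mismatches of 22, or at an uninterrupted match of at least 13 bases. Of 13018 tested genes with a transcript to search, 9 other than Sik3 were matched for crRNA 8 and 30 for crRNA 1, and limma called 0 of them in RfxCas13d in either set, with a lowest adjusted p of 0.154 and with 2 and 3 genes at an unadjusted p under 0.05. Their log2 fold changes lay between -0.25 and 0.11 for crRNA 8 and between -0.23 and 0.31 for crRNA 1. The closest site was for crRNA 1 in Tet2, which encodes a DNA demethylase, at chr3:133471612-133471633 on the minus strand, in a transcript with a retained intron. It had 2 mismatches, shown in lower case beside the paired bases in capitals, and Tet2 had a log2 fold change of 0.11 (adjusted p = 0.448).
Tet2 site for crRNA 1: ATGTGGgACCTGGCAGTGCTaG

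The best stretches in Ubp1 and Psmd11 are shown because these are the genes that separated the crRNAs, with bases that pair with the spacer in capitals. Ubp1 and crRNA 1 shared 10 uninterrupted bases and had 9 mismatches at chr9:113976780-113976801, plus strand, in exon 17 of 17 in the 3′ UTR.
Ubp1 stretch for crRNA 1: cTcTtGggttTGGCAGTGCTgt
Of the tested genes, 89.8% had as few mismatches to crRNA 1 and 10.4% as long an uninterrupted match. Psmd11 and crRNA 8 had 8 mismatches at chr11:80433986-80434007, plus strand, and shared 9 uninterrupted bases at chr11:80434173-80434194, plus strand, both in a transcript with a retained intron.
Psmd11 stretch of fewest mismatches for crRNA 8: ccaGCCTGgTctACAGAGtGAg
Psmd11 stretch of longest match for crRNA 8: GATGCCTGAgctcatGAtCtgt
As few mismatches to crRNA 8 were found in 48.2% of the tested genes, and as long a match in 21.1%. With the other spacer of each pair the longest match was shorter. Psmd11 and crRNA 1 had 8 mismatches, as few as in 59.2% of the tested genes, and at most 8 uninterrupted bases, as long as in 69.1%. Ubp1 and crRNA 8 had 10 mismatches, as few as in 96.2%, and at most 8 uninterrupted bases, as long as in 58.8%. Whether these matches have a part in the levels was not tested. These stretches are descriptions of letters in annotated spliced transcripts; introns and unannotated RNA were not searched.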

How the data were processed

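RNA-seq of sorted N2a cells was deposited as 1 table of FPKM for 36 libraries in 18 groups of 2. Per the study's methods, Trim Galore, Subread (mm10) and featureCounts were used, and the authors turned the counts into the deposited FPKM by gene length and library total. No version, annotation or strand setting is given in the sources used here. The study's DESeq2 test of counts was replaced by limma, since FPKM are not counts.

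After division by median-of-ratios factors, log2(FPKM + 1) was fitted for the 13293 genes that reached 1 FPKM in 2 or more libraries. The fit used R 4.3.3 and limma 3.58.1 on all 36 libraries, with group means and an intensity trend, and p-values were adjusted by Benjamini-Hochberg over all of them. DEGs had an adjusted p under 0.05 and a fold of at least 2, on a scale that understates low genes. Groups followed the sample labels, and the members and gene lists were chosen with earlier results of these data known. Named genes were Sik3, Ubp1, Psmd11, all DEGs, up to 12 genes of smallest p per direction without overlap between groups, DEGs of the interaction and, for lists described one by one, the 3 members of smallest p. Other genes of the lists and those called with both nucleases were named after their values were seen.

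Depth was estimated as the library total between 6000000 and 18000000 at which low FPKM of 1569 single-exon genes came to whole fragments within 0.1, which held for 97.0% to 100.0% of values. At 0.5 of the estimate it held for 29.5% to 47.6%. The upper limit was set after the estimates were seen. With a limit of 40000000, 23 libraries moved, to about 2 or 3 times the estimate, which also gives whole fragments. Depth entered no test. Spacers and gene positions were matched to GENCODE vM21 transcripts (mm10), of which introns were not part. Alternatives were the pseudocount, filter, normalization, libraries fitted, exon length trend, replicate block, mismatch limit and leaving out each library.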

Additional observations from a re-analysis of the deposited data

Results flagged for a closer look

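The response to crRNA 8 over crRNA 1 differed between RfxCas13d and dRfxCas13d, by the interaction term of the limma fit (adjusted p under 0.05), for 13 of the genes named above. Genes had been named for a small p in RfxCas13d or for the interaction itself, among other reasons, so this count is no independent result. The differences are given as the log2 fold change in RfxCas13d minus that in dRfxCas13d. Of the genes measured at over 20 FPKM with either crRNA, Ubp1 differed by 1.30, Psmd11 by -1.01, Impact by 0.47, Arrdc3 by 0.41, Psmd4 by 0.36, Psmd12 by 0.34, Odr4 by 0.29, Psmc5 by 0.28 and Zwint by 0.28. For Impact, RfxCas13d had 68.4 and 63.6 FPKM with crRNA 8 and 49.3 and 50.3 FPKM with crRNA 1, and dRfxCas13d had 77.3 and 78.5 FPKM with crRNA 8 and 81.7 and 81.6 FPKM with crRNA 1. Rsrc1 differed by -0.61, and in dRfxCas13d it had 13.3 and 12.5 FPKM with crRNA 8 and 12.2 and 13.5 FPKM with crRNA 1. The value for Mir7652 was 3.60, for Mir3077 1.55 and for Tnfrsf4 1.09. Tnfrsf4 was at no more than 2.69 FPKM in the 8 libraries, the hairpins were measured from few fragments, and the value of Mir3077 is no fold, since it was listed at 0 in every library but the 2 with RfxCas13d and crRNA 8.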

How the results depend on the processing

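Ubp1, Psmd11 and Sik3 kept their direction under all 14 alternatives. The calls of Ubp1 and Psmd11 were lost only where the 4 libraries were fitted alone, where the 28 named genes called in the comparison all lost their calls, and no result reversed. DEGs in RfxCas13d numbered 14 at a pseudocount of 0.1, 3 at a mean FPKM of at least 5, 0 with 4 libraries and 8 to 10 without 1 library, and genes of any fold numbered 0 and 71 to 106 in the last 2. In dRfxCas13d there were 4 and 9 DEGs at pseudocounts of 0.5 and 0.1 and 1 to 6 without 1 library, and genes of any fold numbered 0 with 4 libraries and 8 to 22 without 1. The interaction had 3 DEGs with no filter, at a mean FPKM of at least 5 or under quantile normalization, 2 with 8 libraries alone and 2 to 5 without 1 library, and genes of any fold numbered 3 and 8 to 16. Genes matched by the crRNA 8 spacer numbered 5 at up to 3 mismatches and 34 at up to 5, and by the crRNA 1 spacer 75 at up to 5, of which Chst11 (-0.27) was called. Beyond the fewer genes or libraries used, the cause of these shifts was not tested. Where 1 library was left out, the remaining one of its group was assumed to vary like the other groups. Medians of the 31 lists and of all genes kept within 1 SD in 408 of 446 recomputations.

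Replicate numbers did not pair the samples, with a correlation of deviations of 0.04 in RfxCas13d and 0.01 in dRfxCas13d. With a replicate block there were 7 DEGs and 217 genes of any fold in RfxCas13d, 207 of them among the 222, 0 and 73 in dRfxCas13d, and 4 and 31 for the interaction. With the block and the exon length trend removed these were 7 and 246, 0 and 73, and 5 and 32. E2f1 had an adjusted p of 0.0505 with the block.

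Low FPKM rest on few fragments, and with 2 libraries a group the calls rely on a spread estimated over all groups.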
